A study of Danio rerio with 5 samples.

Results

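The expression of 10 annexin genes (anxa1a, anxa1b, anxa1c, anxa1d, anxa2a, anxa2b, anxa3b, anxa4, anxa5b and anxa6) was followed in single cells of the embryonic and larval zebrafish eye. The genes were chosen by their symbols in the gene lists of the deposited matrices, in which each symbol stood for 1 feature, and they make up 10 of 15413 symbols and 10 of 16 annexin symbols. They carried 86.5% of all annexin UMIs (unique molecular identifiers, each marking 1 captured mRNA molecule). The study asked how the cells of the anterior segment, which holds the cornea, the iris and the drainage structures, change while it forms. Eyes were dissected from Tg[foxc1b:GFP] fish, whose genotype label is AB, at 5 times, 24 h apart, from 48 to 144 hpf (hours post fertilization) and dissociated with trypsin, and the GFP+ cells were sorted and sequenced in droplets. All groups carried the transgene, and the reporter is driven by the promoter of 1 gene, so every value concerns cells in which that promoter was active or that passed the GFP gate. Retinal and other cells passed it too.

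Annexins are cytosolic proteins that bind acidic phospholipids of membranes when calcium rises, and they take part in membrane repair, vesicle traffic and the anchoring of actin at the plasma membrane. In mammals Annexin A1 is abundant in squamous epithelia and limits inflammation, and Annexin A2 forms a complex with the small calcium-binding protein S100A10. Annexin A5 is known in mammals for its binding to phosphatidylserine on dying cells. The cornea is covered by a stratified epithelium whose basal layer holds the progenitors and whose superficial layer faces the outside.

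The deposited cells numbered 12234 in 10 libraries, A and B at each of the 5 time points, with 102 to 2759 cells and a median of 760.0 to 3709 UMIs per cell. In the deposited table of cells 48 hpf A and 72 hpf A are listed as V2 and the remaining libraries as V3 chemistry, whereas the labels name only V2 and the study's methods only V3, so the chemistry is uncertain. A and B of a time point were taken to be separate runs, from a code whose meaning was read from its values only. For 96 hpf A that code differed between the deposited tables of cells, so the runs are uncertain. If the code names the run, letter and run cannot be told apart. Libraries shared cell barcodes. In all, 92 barcodes occurred in 2 or more libraries, and 61 of the 102 barcodes of 144 hpf B also occurred in 48 hpf B. All 61 of these pairs fell into the same class, and 55 were superficial in both libraries. Some of the results that rest on these cells are therefore given without them as well, and the others with them only.

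Cells were clustered again at each time point with the annexins left out, and clusters were named from marker lists, so that a difference from the study's own cell types may come from the rebuilt names. The 5 classes compared held 10847 cells: 1097 superficial epithelium-like and 1587 basal epithelium-like cells in 10 libraries each, 1357 scinla-rich-like cells in 7 libraries, 1561 mesenchymal cells in 8 libraries and 5245 retinal or neural-like cells in 9 libraries. The mesenchymal class joined clusters named for cartilage, periocular mesenchyme or corneal stroma. The basal markers separated the epithelial layers, with a summed level of 2443 to 20518 CPM (UMIs per 1000000 UMIs of the class in a library) in superficial cells and 59032 to 114370 CPM in basal cells. The 13 superficial markers overlapped in their sum, because the keratins krt4, cyt1 and cyt1l were high in both layers. Of the list, only icn2, agr1, the claudin cldne and tcnbb had ranges that did not overlap between the layers. cldne had 380.2 to 2160 CPM in superficial and 1.92 to 44.2 CPM in basal cells. The ranges of the remaining markers overlapped, as for pnp5a with 18.6 to 1220 CPM in superficial and 15.8 to 652.1 CPM in basal cells. A UMI is counted once whatever the length of its transcript, so CPM levels of different genes are set beside each other here.

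The annexins were highest in the epithelium. Summed over the 10 genes they reached 5635 ± 5142 CPM in superficial cells (SD, n = 10 libraries), 2438 ± 509.3 CPM in basal cells (n = 10), 469.2 ± 233.4 CPM in scinla-rich cells (n = 7), 676.2 ± 321.3 CPM in mesenchymal cells (n = 8) and 93.6 ± 74.9 CPM in retinal cells (n = 9). The superficial libraries spread from 1333 to 16755 CPM and overlapped with the basal ones, which spread from 1889 to 3163 CPM. The layers held different annexins. In superficial cells anxa1c made up 35.2% ± 12.8 and anxa1a 31.2% ± 8.35 of the members' UMIs, whereas in basal cells anxa1a made up 63.2% ± 5.61, anxa2a 20.8% ± 3.95 and anxa1c 1.20% ± 0.66 (SD over 10 libraries each). Scinla-rich cells held mainly anxa4, with 31.5% ± 9.01, and anxa2a, with 30.3% ± 18.6 (n = 7). In mesenchymal cells anxa4 made up 31.3% ± 9.0, anxa3b 23.7% ± 10.5, anxa1a 21.5% ± 13.0 and anxa5b 15.9% ± 5.30 (n = 8).

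**Figure D1:**
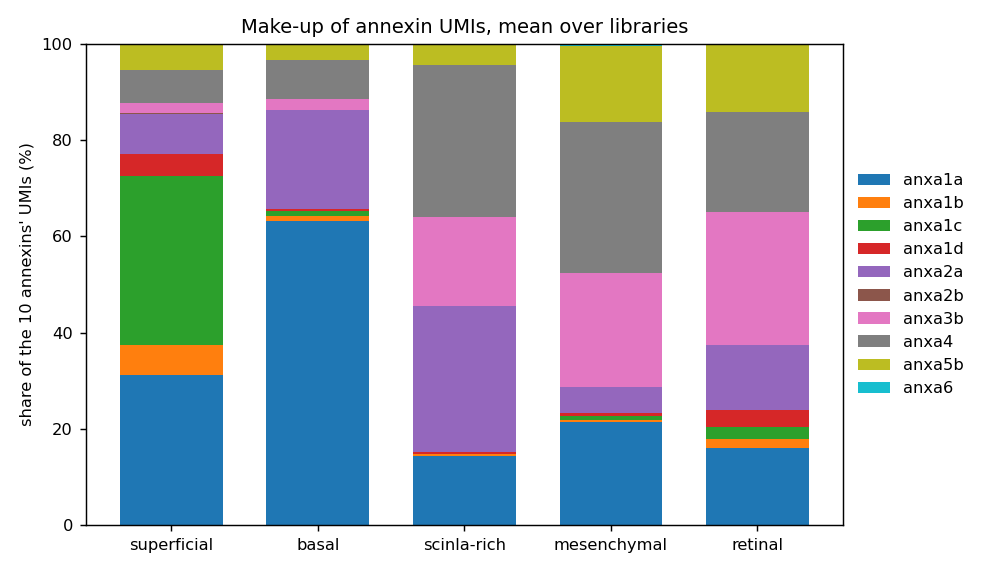
Mean share of each annexin among the UMIs of the 10 members (vertical axis, percent) in the 5 cell classes (horizontal axis). Basal cells are mostly anxa1a (63.2%) and anxa2a (20.8%), and superficial cells hold anxa1c (35.2%) beside anxa1a (31.2%).

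The first comparison asked which annexins distinguish the superficial from the basal epithelium. The anxa1-type genes anxa1b, anxa1c and anxa1d, which belong to the Annexin A1 branch of the family, were higher in superficial cells, and anxa3b, an Annexin A3 gene, was lower. Of the 10 members, 8 passed the filter on low counts, 3 were called higher and 1 lower, beside 30.7% of 9205 genes called in all, 16.8% higher and 13.9% lower (edgeR's quasi-likelihood test with Benjamini-Hochberg adjustment, library as a block). The members' median difference was -0.55 on the log2 scale, against 0.06 over all genes tested. anxa2b and anxa6 held too few UMIs for the test. The 4 calls also passed when the cells that shared a barcode were left out.

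The level of anxa1c ran from 81.8 CPM through a median of 1369 CPM to 7322 CPM in superficial cells, against 7.43, 24.9 and 79.2 CPM in basal cells. The ranges of the 10 superficial and 10 basal libraries did not overlap. Within a library anxa1c was 50.9-fold higher in superficial than in basal cells (mean log2 ratio 5.67 ± 1.29, SD, higher in 10 of 10 libraries; 0.5 counts were added to each sum). The fitted difference was 5.33 (SE 0.49, adjusted p = 3.46e-11, edgeR).

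For anxa1d the lowest, median and highest level was 59.5, 198.9 and 347.8 CPM in superficial cells, against 1.92, 3.92 and 24.4 CPM in basal cells. These ranges did not overlap either, and the fitted log2 difference was 4.61 (SE 0.41, adjusted p = 1.68e-11, edgeR), with a higher level in 10 of 10 libraries. For anxa1b the same values were 133.8, 186.7 and 506.4 CPM in superficial cells, against 5.06, 9.59 and 170.7 CPM in basal cells. The fitted log2 difference of anxa1b was 3.34 (SE 0.28, adjusted p = 4.90e-12, edgeR). Its ranges overlapped through 1 library, 144 hpf B, in which the basal level rested on 28 UMIs in 21 cells and the superficial over basal log2 ratio was 0.0401. In mesenchymal cells these genes were near the limit of counting, since all of these cells together held 3 UMIs of anxa1b, 8 of anxa1c and 5 of anxa1d. The zebrafish anxa1b, anxa1c and anxa1d genes lie close together on chromosome 5 of RefSeq's GRCz12tu assembly, with anxa1d and anxa1c next to each other. Their sequences were not compared here, and if the genes share reads, the split of UMIs among them is uncertain.

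**Figure D2:**
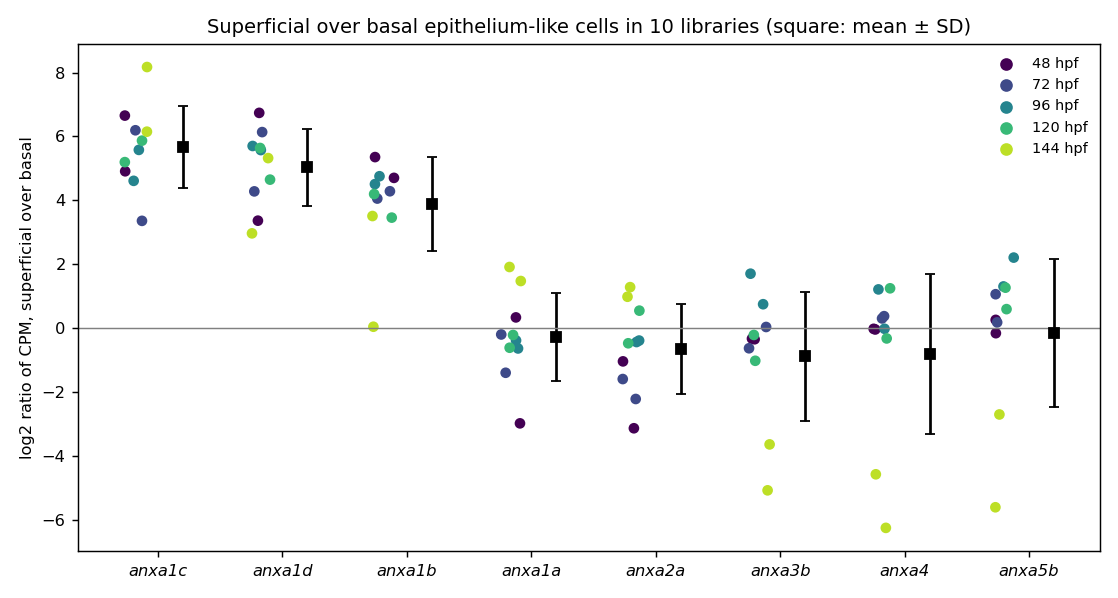
Log2 ratio of CPM, superficial over basal cells of the same library (vertical axis), for 8 annexins (horizontal axis). Points are the 10 libraries coloured by time point, and squares with bars are the mean and SD. anxa1c (5.67), anxa1d (5.04) and anxa1b (3.89) lie above 0 in every library, and the other 5 spread over both signs.

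Basal cells held mainly anxa1a and anxa2a in every library. The lowest, median and highest level of anxa1a was 242.1, 1024 and 7730 CPM in superficial cells, against 1113, 1345 and 2084 CPM in basal cells. The superficial range enclosed the basal one, and the fitted superficial minus basal difference of -0.81 (SE 0.58) did not pass (adjusted p = 0.315, edgeR). The level of anxa2a was 67.7, 266.1 and 1203 CPM in superficial cells, against 337.2, 495.3 and 663.2 CPM in basal cells, with a fitted difference of -1.35 (SE 0.54, adjusted p = 0.0519, edgeR) and a higher superficial level in 3 of 10 libraries. It passed, lower in superficial cells, when 144 hpf A (-1.68), 144 hpf B (-1.64) or the cells that shared a barcode (-1.46) were left out. The anxa2a ratio to basal cells differed in sign between the keratin-high and keratin-low superficial cells described below. anxa3b, with 0, 38.9 and 118.9 CPM in superficial cells and 24.4, 49.0 and 116.3 CPM in basal cells, was fitted 0.98 lower in superficial cells on the log2 scale (-0.98, SE 0.30, adjusted p = 0.0111, edgeR), although the ranges overlapped. This call was lost with coarser clustering (-1.12) and without the library block (-0.88). For anxa4 (-0.85, SE 0.47) and anxa5b (-0.28, SE 0.39) no difference passed (adjusted p = 0.172 and 0.636, edgeR). anxa4 passed, lower in superficial cells, with all time points clustered together (-0.83) and without called doublets (-0.92).

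Among 8 other annexins listed, 4 were tested, of which anxa3a was higher in superficial cells (1.68, SE 0.41, adjusted p = 0.00185, edgeR) and anxa11b lower (-0.73, SE 0.21, adjusted p = 0.00713, edgeR). Of 10 annexin partners listed, 5 were tested, of which 1 was called higher and 3 lower. The higher one was s100a11, a calcium-binding protein that in mammals binds Annexin A1, but it had 0 CPM in the median superficial library and 778.1 CPM in the highest. The lower ones were s100a10b, the zebrafish counterpart of the mammalian Annexin A2 partner, with 937.4 to 2602 CPM in superficial and 1158 to 10555 CPM in basal cells (-1.57, SE 0.56, adjusted p = 0.0289, edgeR), sri, a calcium-binding protein (-0.63, adjusted p = 0.0189, edgeR), and plaub, a plasminogen activator that reached no more than 17.8 CPM in any basal library (-4.41, adjusted p = 1.36e-05, edgeR).

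**Figure D3:**
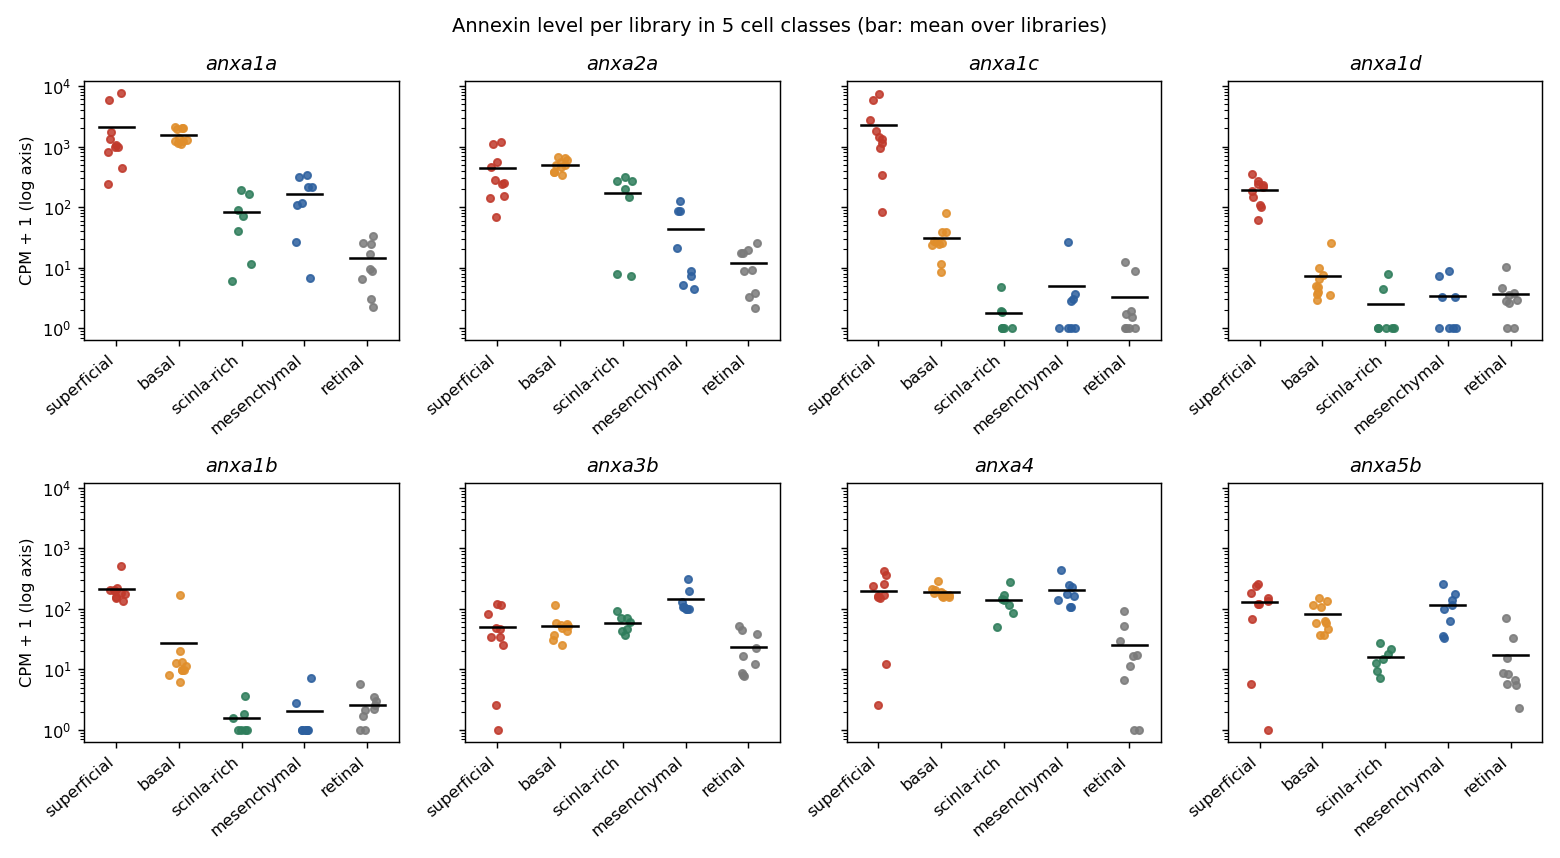
CPM + 1 of 8 annexins (vertical axis, log scale) in superficial, basal, scinla-rich, mesenchymal and retinal cells (horizontal axis); each point is 1 library and each bar the mean. anxa1b, anxa1c and anxa1d are highest in the superficial class, and anxa3b has its highest mean in mesenchymal cells (143.1 CPM). anxa4 and anxa5b have means of 200.8 and 113.8 CPM in mesenchymal cells, beside 192.4 and 127.8 CPM in superficial cells.

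The superficial cells held at least 2 kinds of cell with different annexins. When all time points were clustered together, again without annexins, the superficial cells fell into 1 keratin-high cluster, with 34003 to 68156 CPM of krt4 in the 6 libraries that held at least 10 of its cells, and 1 keratin-low cluster, with 1471 to 9698 CPM in 9 libraries. These clusters were made from the same cells, so their values are a description without a test. The 13 superficial markers summed to 176372 to 225057 CPM in keratin-high cells and 6798 to 18323 CPM in keratin-low cells. In basal cells they summed to 16562 to 96578 CPM, so the superficial name of keratin-low cells is uncertain. agr2 had 0 to 16.1 CPM in keratin-high and 268.7 to 4041 CPM in keratin-low cells. In keratin-high cells anxa1c had 3495 to 8020 CPM, against 17.7 to 262.4 CPM in keratin-low cells. anxa1a had 2031 to 7743 CPM in keratin-high cells, against 247.2 to 1057 CPM in keratin-low cells. Neither pair of ranges overlapped.

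In the 5 libraries with both kinds, the mean log2 ratio of keratin-high over keratin-low cells was 5.69 ± 1.84 for anxa1c, 2.51 ± 1.49 for anxa1a, 2.26 ± 0.92 for anxa1d, 1.64 ± 0.66 for anxa2a and 1.47 ± 0.42 for anxa1b (SD), each above 0 in 5 of 5 libraries. Ratios below 0 were found for 3 members, with -3.70 ± 1.70 for anxa3b, -4.60 ± 0.95 for anxa4 and -5.24 ± 1.48 for anxa5b, each below 0 in 5 of 5 libraries. anxa2b had 0 UMIs in both kinds, and the ratio of anxa6 was above 0 in 3 of 5 libraries. Keratin-high cells were thus nearly without anxa4, at 1.62 to 16.1 CPM, where keratin-low cells had 178.9 to 659.2 CPM. Without the cells that shared a barcode the ratios were 5.62 for anxa1c, 2.41 for anxa1a, -4.49 for anxa4 and -5.15 for anxa5b.

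Set against the basal cells of the same library, anxa1a was higher in keratin-high cells (log2 ratio 1.15 ± 0.50, 6 of 6 libraries) and lower in keratin-low cells (-1.50 ± 0.83, 9 of 9 libraries). anxa4 was lower than in basal cells in keratin-high cells (-4.33 ± 1.11, 6 of 6) and higher in keratin-low cells (0.67 ± 0.49, 9 of 9). anxa5b was split in the same way, with -4.03 ± 1.54 (above 0 in 0 of 6) and 1.36 ± 0.77 (above 0 in 9 of 9). For anxa2a the ratio was 0.73 ± 0.62 in keratin-high cells (above 0 in 5 of 6) and -1.67 ± 1.12 in keratin-low cells (above 0 in 0 of 9). For anxa3b, called lower in the whole class, the ratio to basal cells was -3.40 ± 1.5 in keratin-high cells (below 0 in 6 of 6) and 0.51 ± 0.97 in keratin-low cells (above 0 in 5 of 9). For anxa1c the ratio to basal cells was 7.37 ± 0.67 in keratin-high cells (6 of 6 above 0) and 1.76 ± 1.17 in keratin-low cells (8 of 9 above 0, lowest -0.30). anxa1d and anxa1b were above the basal level in every library of both kinds, anxa1d with 5.88 ± 1.68 in keratin-high and 4.26 ± 1.01 in keratin-low cells and anxa1b with 4.08 ± 2.11 in keratin-high and 3.72 ± 0.78 in keratin-low cells. Markers of ionocytes, the ion-transporting cells of fish skin, summed over 7 genes to 0 to 24.1 CPM in keratin-high cells and 32.7 to 736.6 CPM in keratin-low cells. Immune, lens and muscle markers were at 0 in keratin-high cells, and in keratin-low cells they summed to at most 129.5 CPM. The superficial class tested was not the same set of cells. Its highest library sums were 1570 CPM of muscle, 239.5 CPM of lens and 151.7 CPM of immune markers. The part of these cells in the annexin values was not tested.

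**Figure D4:**
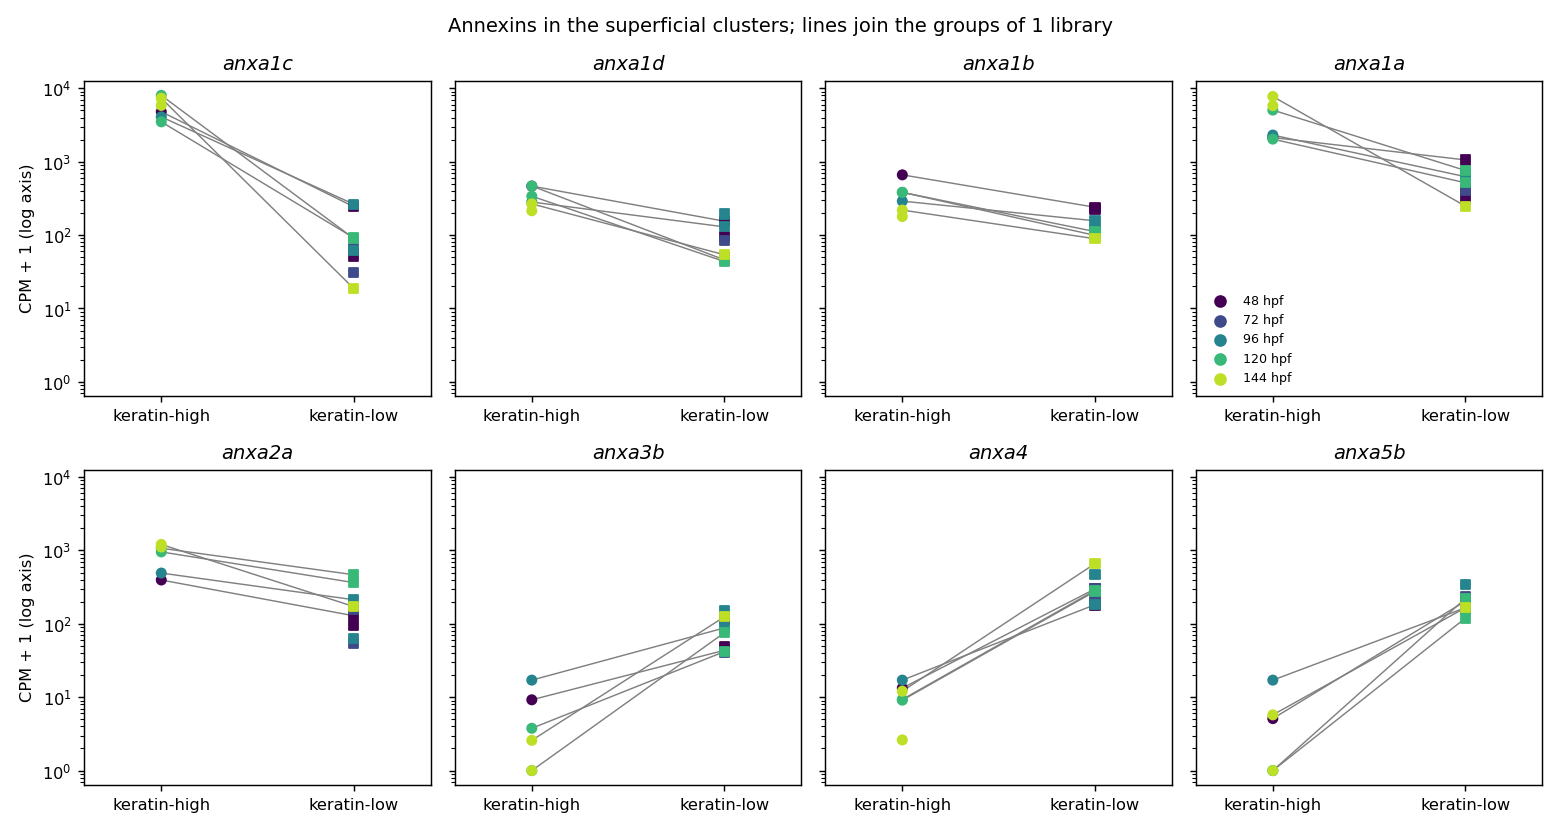
CPM + 1 of 8 annexins (vertical axis, log scale) in keratin-high and keratin-low superficial cells (horizontal axis). Each point is 1 library coloured by time point, and lines join the values of 1 library. Every line falls towards keratin-low cells for anxa1a, anxa1b, anxa1c, anxa1d and anxa2a, and climbs for anxa3b, anxa4 and anxa5b.

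Levels were next compared between the 5 time points within each class. In basal cells, 2 of 7 members tested changed, anxa1b and anxa5b, beside 10.9% of all genes tested (edgeR's quasi-likelihood test). anxa5b had 151.3 and 131.9 CPM at 48 hpf, 115.1 and 107.4 CPM at 72 hpf, 56.7 and 61.4 CPM at 96 hpf, 44.9 and 56.5 CPM at 120 hpf, and 35.9 and 36.6 CPM at 144 hpf (libraries A and B). All libraries at 48 and 72 hpf lay above all later ones, and the adjusted p was 0.0442 (edgeR). That call was lost when any 1 of the 10 libraries was left out, with adjusted p-values up to 0.188, and without the cells that shared a barcode (0.196). A linear trend gave -0.41 log2 units per 24 h for anxa5b (adjusted p = 0.00172, edgeR). The call for anxa1b (adjusted p = 0.0155, edgeR) rested on 144 hpf B and was lost without it (0.130) or without shared barcodes (0.112). The level of anxa1a, with 1926 and 1388 CPM at 48 hpf, 1157 and 1113 CPM at 72 hpf and 2055 and 2084 CPM at 144 hpf, did not pass (adjusted p = 0.146, edgeR).

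In superficial cells, 4 of 8 members tested changed over time, anxa1a, anxa2a, anxa4 and anxa5b, beside 8.74% of all genes tested. anxa1a had 242.1 and 1748 CPM at 48 hpf, 437.4 and 965.8 CPM at 72 hpf, 801.8 and 992.9 CPM at 96 hpf, 1055 and 1331 CPM at 120 hpf, and 7730 and 5790 CPM at 144 hpf (adjusted p = 0.0122, edgeR). anxa2a had 67.7 and 239.1 CPM at 48 hpf and 1203 and 1110 CPM at 144 hpf (adjusted p = 0.00523, edgeR). Both 144 hpf libraries lay above all earlier ones for either gene. anxa4 had 149.7 and 158.7 CPM at 48 hpf, 171.2 and 418.7 CPM at 120 hpf, and 11.1 and 1.62 CPM at 144 hpf (adjusted p = 0.0269, edgeR). anxa5b had 180.5 and 117.4 CPM at 48 hpf, and 4.74 and 0 CPM at 144 hpf (adjusted p = 0.0324, edgeR). For both, the 144 hpf libraries lay below all earlier ones. These 2 calls were lost with all time points clustered together (adjusted p = 0.939 for anxa4 and 0.427 for anxa5b, edgeR) and without called doublets (0.866 and 0.394), and with finer clustering all 4 calls were lost (0.0531 to 0.598).

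The class was made of different clusters at different times. At 144 hpf it was a single cluster of 120 cells with 48339 CPM of krt4, whereas at 48 hpf it held 1 cluster with 4160 and 1 with 66567 CPM, and at 120 hpf 1 with 5313 and 1 with 59368 CPM. In the clustering of all time points together, whose superficial cells are not the same set, keratin-high cells of libraries A and B made up 4.71% and 63.3% of superficial cells (48 hpf), 3.39% and 9.52% (72 hpf), 5.71% and 10.9% (96 hpf), 19.9% and 19.3% (120 hpf), and 56.4% and 94.8% (144 hpf). That clustering placed 78 cells of 144 hpf A in the superficial class, 44 of them keratin-high, against 46 cells in the class tested. Its 34 keratin-low cells of 144 hpf A had 659.2 CPM of anxa4 and 164.8 CPM of anxa5b. The keratin-high cells of that library had 11.1 and 4.74 CPM. At 48 hpf anxa4 in the class tested was at 149.7 CPM in A and 158.7 CPM in B. In the joint clustering it was at 12.3 CPM in keratin-high and 297.7 CPM in keratin-low cells of B. Keratin-low cells of A had 178.9 CPM. Of the 81 keratin-high cells in 48 hpf B and the 73 in 144 hpf B, 55 each carried a shared barcode. Without shared barcodes anxa1a was at 1403 CPM in 48 hpf B and 3550 CPM in 144 hpf B. The part of this make-up in the time course was not tested. The calls for anxa1a were lost without 72 hpf A, 96 hpf A, 96 hpf B, 144 hpf A or 144 hpf B (adjusted p = 0.0548 to 0.172, edgeR), and those for anxa2a without 96 hpf A, 144 hpf A or 144 hpf B (0.0538 to 0.109). Those for anxa4 and anxa5b were kept only when 120 hpf A or 120 hpf B was the library left out, and reached 0.226 and 0.269. The call for anxa5b was also lost without shared barcodes (0.0530). anxa1c had 342.6 and 2695 CPM at 48 hpf, 81.8 and 1839 CPM at 72 hpf, and 7322 and 5843 CPM at 144 hpf, and missed the threshold (adjusted p = 0.0787, edgeR).

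The superficial over basal ratio itself differed between time points for 6 of 8 members tested, beside 7.43% of 7026 genes (interaction of class and time point, edgeR, added after seeing the data). They were anxa2a and anxa4 (adjusted p = 0.000277 each), anxa1a (0.00542), anxa5b (0.00790), anxa1c (0.0146) and anxa3b (0.0247). For anxa1a the ratio was above 0 in 3 of 10 libraries, 48 hpf B and both 144 hpf libraries. It was below 0 in 48 hpf A, so the libraries of 48 hpf differed in sign. The ratios of anxa1d (0.994) and anxa1b (0.230) did not pass.

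The second comparison set the epithelium, both layers together, against the mesenchymal cells. Here 5 of 8 members tested were higher, beside 22.2% of all genes, and 1 was lower, beside 19.2%, so that 41.4% of genes were called in all (edgeR's quasi-likelihood test). anxa1a, which had 5.77 to 332.0 CPM in mesenchymal cells, was higher in the epithelium by 3.56 on the log2 scale (SE 0.64, adjusted p = 1.69e-05, edgeR), and in each layer it was above the mesenchymal level in 8 of 8 libraries. anxa2a, at 3.46 to 124.7 CPM in mesenchymal cells, was higher by 4.10 (SE 0.62, adjusted p = 8.48e-07, edgeR). The differences of anxa1b (6.07), anxa1c (6.85) and anxa1d (4.73) rest on the few mesenchymal UMIs given above.

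anxa3b was the member with its highest mean in mesenchymal cells and a lower level in the epithelium (-0.78, SE 0.27, adjusted p = 0.0170, edgeR). It had 96.9 to 309.9 CPM in mesenchymal cells, and within a library its level was lower in basal and in superficial cells than in mesenchymal cells in 8 of 8 libraries (log2 ratios -1.28 ± 0.55 and -1.29 ± 0.63, SD). This call was lost without 120 hpf A (-0.76). For anxa4 (0.65, SE 0.44, adjusted p = 0.251, edgeR) and anxa5b (0.63, SE 0.38, adjusted p = 0.187, edgeR) no difference passed. anxa4 had 154.8 to 283.5 CPM in basal cells, beside 107.2 to 437.0 CPM in mesenchymal cells.

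Mesenchymal cells in turn held more annexin than retinal cells. Of 8 members tested 5 were higher in mesenchymal cells, beside 23.7% of all genes, and 0 were lower, beside 28%, so that 51.7% of genes were called in all. The fitted log2 differences were 4.0 for anxa1a (SE 0.74, adjusted p = 2.56e-05, edgeR), 3.48 for anxa4 (SE 0.57, adjusted p = 3.55e-06, edgeR), 3.27 for anxa5b (SE 0.48, adjusted p = 5.62e-07, edgeR), 2.85 for anxa3b (SE 0.34, adjusted p = 1.01e-08, edgeR) and 2.2 for anxa2a (SE 0.70, adjusted p = 0.00830, edgeR). The last call was lost without 120 hpf B (1.91). anxa3b, anxa4 and anxa5b were above the retinal level of the same library in 8 of 8 libraries. In retinal cells the highest level of any member in any library was 90.6 CPM, for anxa4 in 72 hpf A. The 3 members not called, anxa1b, anxa1c and anxa1d, averaged under 4 CPM in both classes.

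The scinla-rich cells, named for scinla, a gelsolin-family actin regulator, were compared with mesenchymal cells next. anxa2a was higher and anxa5b lower in scinla-rich cells, so 1 of 8 members tested was called in each direction, a share near the 22.4% of genes called in all, 11.3% higher and 11.1% lower (edgeR's quasi-likelihood test). anxa5b had 6.21 to 26.1 CPM in the 7 scinla-rich libraries, against 31.5 to 254.2 CPM in the 8 mesenchymal libraries. These ranges did not overlap, and the fitted difference was -2.36 (SE 0.51, adjusted p = 0.000895, edgeR), with a lower level in 6 of 6 libraries that held both classes. It was lost with coarser clustering (-1.56). anxa2a was fitted 1.98 higher (SE 0.64, adjusted p = 0.0227, edgeR) but was above the mesenchymal level in 4 of 6 libraries, and the call was lost without 96 hpf A (1.63), 96 hpf B (1.98) or 120 hpf A (1.92). Its partner s100a10b was higher too (3.59, SE 0.66, adjusted p = 0.000108, edgeR). anxa3b (-0.90, SE 0.35) missed the threshold (adjusted p = 0.0569, edgeR), and passed without 144 hpf A (-1.10), 144 hpf B (-0.91) or the cells that shared a barcode (-0.90).

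In scinla-rich cells, 3 of 5 members tested changed between 72 and 144 hpf, beside 4.30% of genes. anxa2a had 6.41 and 6.93 CPM at 72 hpf, 146.7 and 265.5 CPM at 96 hpf, 268.4 and 195.7 CPM at 120 hpf, and 309.3 CPM in the 1 library at 144 hpf (adjusted p = 0.00503, edgeR). Both 72 hpf values lay below all later ones. anxa1a had 5.13 and 10.4 CPM at 72 hpf, 88.7 and 39.6 CPM at 96 hpf, 164.0 and 70.6 CPM at 120 hpf, and 193.1 CPM at 144 hpf (adjusted p = 0.00599, edgeR). anxa4 had 49.99 and 114.3 CPM at 72 hpf and 281.1 CPM at 144 hpf (adjusted p = 0.0385, edgeR), a call that was lost without 96 hpf A, 96 hpf B, 120 hpf B or 144 hpf A (0.0545 to 0.231). The call for anxa2a was lost with coarser clustering (0.223) and without called doublets (0.0771). s100a10b also changed (adjusted p = 0.0141, edgeR).

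In mesenchymal cells, 2 of 5 members tested changed between 48 and 120 hpf, beside 9.30% of genes, and they were again anxa1a and anxa2a. anxa1a had 5.77 and 25.2 CPM at 48 hpf, 214.5 and 115.4 CPM at 72 hpf, 109.1 and 332.0 CPM at 96 hpf, and 214.1 and 315.8 CPM at 120 hpf (adjusted p = 0.0126, edgeR). anxa2a had 3.46 and 6.30 CPM at 48 hpf, 7.95 and 20.4 CPM at 72 hpf, 4.20 and 86.3 CPM at 96 hpf, and 85.3 and 124.7 CPM at 120 hpf (adjusted p = 0.0184, edgeR). The 48 hpf libraries were the lowest for anxa1a, and the 120 hpf libraries were joined by 96 hpf B for anxa2a. By name, the class was made of different clusters at these times, corneal stroma-like alone at 48 and 72 hpf. At 96 hpf 88 cartilage-like cells and at 120 hpf 259 periocular mesenchyme-like cells were added. Over all libraries anxa1a was at 512.2 CPM in cartilage-like, 126.2 CPM in periocular mesenchyme-like and 172.7 CPM in corneal stroma-like cells. Within the clusters named corneal stroma it was at 8.77 CPM at 48 hpf, 137.3 CPM at 72 hpf, 139.9 CPM at 96 hpf and 351.3 CPM at 120 hpf. The 72 hpf cluster had the cartilage markers matn1, cnmd, col2a1a and col9a2 among its leading genes. This series may therefore not follow a single cell type. The periocular mesenchyme-like cluster too had col2a1a, col9a2 and cnmd among its leading genes. The part of the class's make-up in the time course was not tested. Both calls were lost without 48 hpf A (0.206 and 0.102) and without the libraries listed as V2 (0.131 and 0.112), and the call for anxa2a also without 120 hpf B (0.101). In retinal cells, 0 of 5 members tested changed, beside 0% of 7850 genes, with 1 member at an unadjusted p under 0.05 and 1 member called by DESeq2.

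**Figure D5:**
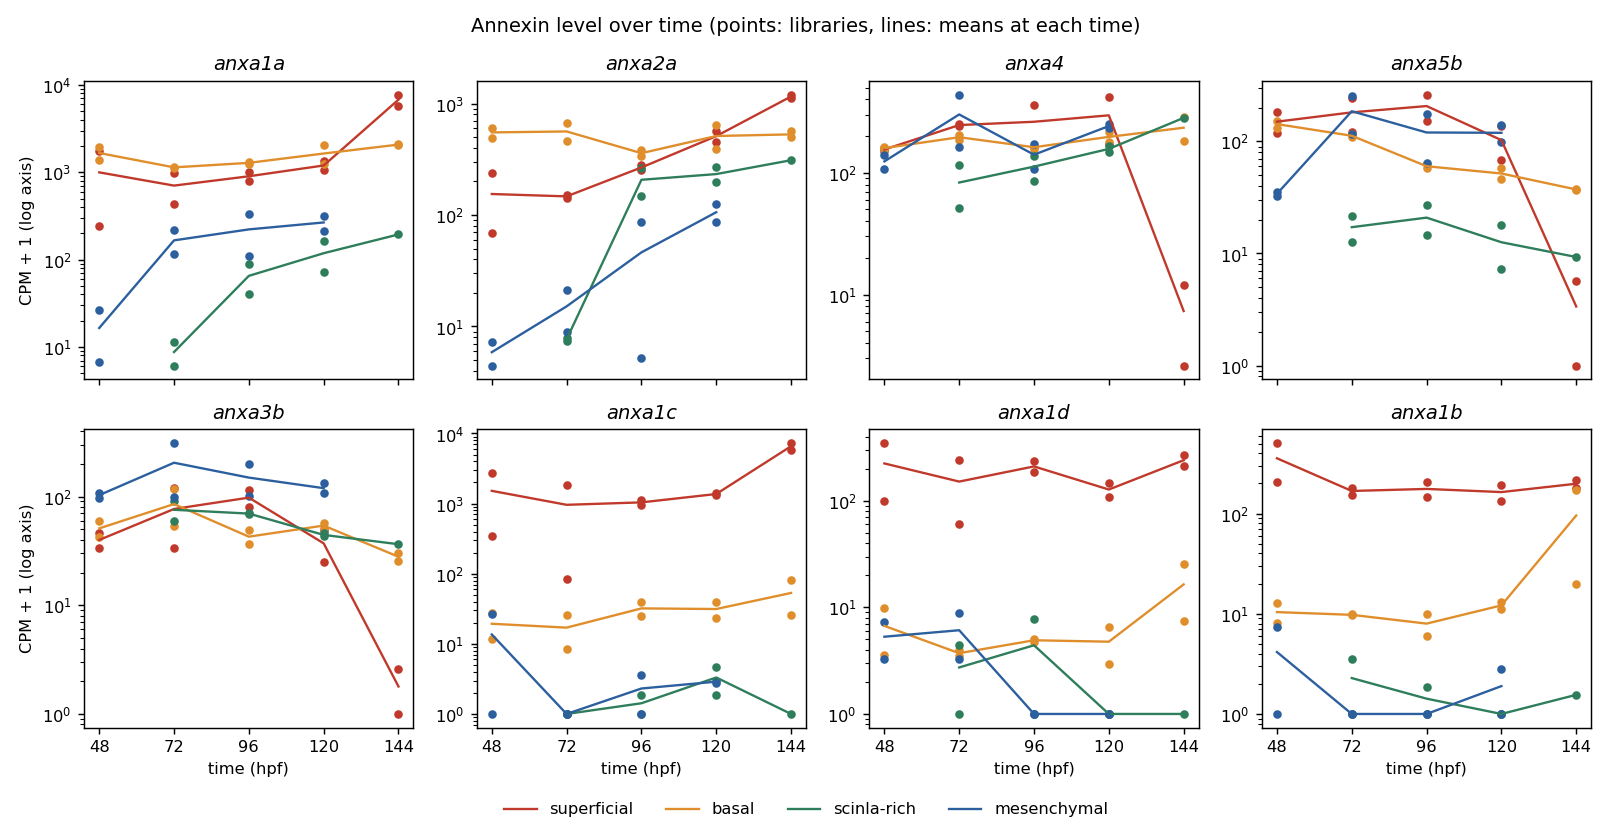
CPM + 1 of 8 annexins (vertical axis, log scale) at 48 to 144 hpf (horizontal axis) in superficial, basal, scinla-rich and mesenchymal cells. Points are libraries and lines join the means. anxa1a and anxa2a climb in scinla-rich and mesenchymal cells, and anxa5b declines in basal cells. anxa4 and anxa5b are low in the superficial class at 144 hpf, which then held only a cluster with high krt4.

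anxa2b and anxa6 were hardly seen in these classes. anxa2b, the second Annexin A2 gene, had 193 UMIs in superficial cells, all in 15 of the 204 superficial cells of 120 hpf B (132.5 CPM), and 1 UMI in a scinla-rich cell of the same library. The other 9 superficial libraries held 0, and in basal cells 0 of 15815941 UMIs allows a level of up to 0.19 CPM (3 counts; counting error only). All 15 cells also held UMIs of s100a10a, the other S100A10 gene, which 18 of the 204 cells held. Those 18 cells had a median of 18734 UMIs, 1038 CPM of anxa4, 2.85 CPM of anxa1a and 0 UMIs of anxa1c, against 222.3, 1752 and 1861 CPM in the other 186 cells. They also held 12799 CPM of fabp2 and 2122 CPM of fabp6, which encode fatty acid and bile acid binding proteins known from the intestine, against 47.9 and 0 CPM. Without them anxa4 in superficial cells of 120 hpf B was 222.3 CPM instead of 418.7 CPM. These cells were picked out after their values were seen. anxa6, in which the annexin core is present as a tandem copy, had 8 UMIs in mesenchymal cells and 1 to 5 UMIs in each of superficial, basal, scinla-rich and retinal cells.

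Over the cells of all libraries, the share of cells with a UMI was higher in both epithelial layers than in the other classes. Cells below 400 UMIs were left out, which kept 1089 of 1097 superficial cells, and the others were thinned to 400 UMIs. At least 1 member was then seen in 52.2% of superficial cells (95% exact binomial interval 49.1 to 55.2), 50.3% of basal cells (47.8 to 52.8), 15.5% of scinla-rich cells, 20.2% of mesenchymal cells and 2.33% of retinal cells. The superficial and basal intervals overlapped, but they pool the cells of all libraries and cover counting error only. By library the share ran from 32.3% (48 hpf A) to 97.2% (144 hpf B) in superficial cells. In basal cells it ran from 39.6% (48 hpf B) to 70.4% (144 hpf A). The median depth before thinning was 2970 UMIs in superficial, 4772 in basal, 3226 in scinla-rich, 1873 in mesenchymal and 2325 in retinal cells. Without thinning, the mean share over libraries was 84.0% in superficial, 88.0% in basal, 54.7% in scinla-rich, 53.4% in mesenchymal and 13.7% in retinal cells. Unthinned, the basal share was thus above the superficial one and the scinla-rich share above the mesenchymal one. These are means over libraries with all cells, whereas the thinned shares pool the cells and leave out those of low depth. The part of depth alone in the order within these pairs was not tested. The retinal class had the lowest share but held Mueller glia-like cells with annexins of their own, and the level that free RNA gives was not measured. Thinned in the same way, anxa1a was seen in 25.8% and anxa1c in 24.2% of superficial cells, against 34.2% and 1.89% of basal cells. By library anxa1c was seen in 2.88% (72 hpf A) to 87.0% (144 hpf A) of superficial cells.

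The genes whose level followed each member most closely over the 44 sums of library and class are given as a description, since all sums of a library share its depth and chemistry. anxa1b, anxa1c and anxa1d correlated with each other at r = 0.94 to 0.96 (Pearson, log2 of CPM + 10), and anxa1a with anxa2a at 0.90. The closest genes were zgc:193505, dhrs13a.2 and capn9 for anxa1c (r = 0.97 to 0.98), agr1, cldne and elovl7a for anxa1d (0.97 to 0.98), and zgc:193505, capn9 and icn2 for anxa1b (0.95 to 0.97). agr1, cldne and icn2 are on the superficial marker list. For anxa2a the closest gene was s100a10b (r = 0.89), followed by fbp1a and zgc:175088, and for anxa1a they were cebpb, zgc:175088 and capns1a (0.91 to 0.92). The members that were lower in keratin-high than in keratin-low cells followed other genes. These were gstt1b, flot2a and wls for anxa3b (0.86 to 0.89) and krt8, rpz5 and aqp3a for anxa4 (0.85). For anxa5b they were cib1, rhogb and zgc:92027 (0.82 to 0.85). The genes closest to anxa2b, zgc:153968, s100a10a and fabp6, owe this to 1 library.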

How the data were processed

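Single-cell 3' RNA-seq of sorted GFP+ eye cells was deposited by the authors as UMI counts per gene and cell, which the submitters' notes credit to Cell Ranger 6.0 and the GRCz11 build, and its cells had already been filtered. The libraries A and B of a time point came from the deposited table of cells. The members, gene lists and marker lists were chosen with earlier results of these data known. The study describes the libraries of a time point as independent replicates.

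Cells were clustered per time point with the annexins left out (100 principal components, 20 neighbours, Leiden resolution 1; leidenalg 0.10.2, igraph 0.11.9, Python 3.11.15). A cluster was named where at least 3 markers of a list, and at least 1 in 3 of them, were raised. Raised markers were 4-fold above their median level across the remaining clusters, with 10 CPM added, and seen in at least 10% of the cluster's cells. The name was dropped where markers of another class outnumbered its own among the 10 leading genes. It was also dropped for clusters of low depth with no marker of the list among these genes. Doublets were called in 175 cells (1.43%) and kept, and 1387 cells lay outside the 5 classes. No mitochondrial genes were listed.

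Counts were summed per library and class (at least 10 cells) and tested with edgeR 4.0.16 in R 4.3.3 (quasi-likelihood, TMM normalization, filterByExpr, Benjamini-Hochberg adjustment over all genes tested, threshold 0.05). Class contrasts used all 5 classes with library as a block, and time tests used time point as a factor within a class. Epithelium is the mean of the superficial and basal terms. Counts were also simulated for the sums of all 5 classes, with changes in the superficial sums only. Every gene had the same dispersion, there was no library effect, and an unchanged gene had the same mean in all classes. In superficial minus basal, 98% of 100 genes changed by 2 on the log2 scale and 70% of 100 changed by 1 were recovered. Of the unchanged genes 0.10% were called, with 7088 genes tested. These shares hold for that simpler setting only. Exact binomial intervals cover counting error only.

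All 10 members are named. Of the other annexins and the partners, those that passed between superficial and basal cells are named, and for each member the 3 genes with the highest correlation, annexins left out. Alternatives were DESeq2 1.42.0, RLE size factors, no filter on low counts, other clusterings, a minimum of 30 cells, thinning depth, each library left out, libraries listed as V2 left out, a replicate block, a linear trend, and, added after seeing the data, leaving out shared barcodes or the 48 hpf B and 144 hpf B libraries. Further alternatives were a fit of only the classes compared, no library block, and clustering with the annexins kept. Cells or sums of 1 library share its depth and chemistry.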

Additional observations from a re-analysis of the deposited data

Results flagged for a closer look

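In 33 sets of libraries (ratios between 2 classes, and the anxa2b level), 3 had a library far from the others, where chance gives about 1 in 20. The anxa2b level was the only level examined. With 0 in 9 libraries it had to be flagged, so it should not be counted against that rate. The superficial over basal log2 ratio of anxa1b was 0.0401 in 144 hpf B, the lowest of 10 libraries, and the other 9 lay between 3.46 and 5.35. The basal over mesenchymal log2 ratio of anxa3b was -2.47 in 96 hpf A, the lowest of 8 libraries. The level of anxa2b in superficial cells was 132.5 CPM in 120 hpf B and 0 in the other 9 libraries.

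The superficial over basal ratio differed between the time points for 6 members (interaction of class and time point, edgeR's quasi-likelihood test, Benjamini-Hochberg adjustment over 7026 genes, of which 7.43% were called). The adjusted p was 0.00542 for anxa1a, 0.0146 for anxa1c, 0.000277 for anxa2a, 0.0247 for anxa3b, 0.000277 for anxa4 and 0.00790 for anxa5b. Without the cells that shared a barcode the same 6 members passed, with adjusted p-values of 9.60e-05 for anxa2a to 0.0428 for anxa3b, beside 6.84% of genes. In the clustering of all time points together, keratin-high cells were 3.39% to 94.8% of superficial cells by library, and their part in these ratios was not tested.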

How the results depend on the processing

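No call changed direction. Over 795 refits of single members in the class contrasts, 766 kept their side of the threshold, 9 lost and 20 gained a call, and over 720 refits of the time tests 630 kept it, 75 lost and 15 gained a call, so the time courses are the less stable results. The members called in scinla-rich minus mesenchymal (2) became 1 at resolution 0.5 and 1 to 3 when 1 library was left out. In superficial minus basal, leaving out 1 library gave 4 to 5. Over time in basal cells (2) they became 1 without the low-count filter, 1 with all time points clustered together, 0 in the subsampled joined matrix, 0 with a minimum of 30 cells, 1 without V2 chemistry, 0 without cells that shared a barcode, 0 without 48 hpf B and 144 hpf B, and 0 to 1 when 1 library was left out. In superficial cells (4) they became 8 without the filter, 0 at resolution 2, 2 with all time points clustered together, 2 without doublets, 2 with a linear trend, 2 without 48 hpf B and 144 hpf B, and 0 to 6 when 1 library was left out (0 without 96 hpf A, 144 hpf A or 144 hpf B). In mesenchymal cells (2) they became 0 without V2 chemistry and 0 to 2 when 1 library was left out. In retinal cells (0) they became 1 with DESeq2 and 2 without the filter. The cause of these changes was not tested. Where leaving out a library left 1 sample at a time point, that sample was assumed to vary like the others.

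To see whether replicate letters pair the samples, A minus B differences within a class were correlated between time points, at r = -0.61 to 0.61. The correlation was above 0.1 for 4 of 10 pairs of time points in basal and 3 of 10 in superficial cells. It was so for 3 of 6 pairs in mesenchymal, 1 of 6 in retinal and 0 of 3 in scinla-rich cells. Whether the letters pair the samples is therefore not settled. With a replicate block by letter, 1 member was called over time in basal cells, 5 in superficial, 2 in scinla-rich, 2 in mesenchymal and 0 in retinal cells.

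Another scaling moved the split of calls. With RLE size factors 38.2% of the genes called in epithelium minus mesenchymal were higher, against 53.7% with TMM, 36.3% against 50.3% in scinla-rich minus mesenchymal, and 56.6% against 45.9% in mesenchymal minus retinal. RLE moved the median of all genes to -0.12 against 0.12 with TMM in epithelium minus mesenchymal, to -0.17 against 0.00315 in scinla-rich minus mesenchymal and to 0.09 against -0.14 in mesenchymal minus retinal. No member called with TMM changed direction.

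Detection differed with the depth used, and thinning left out the cells below that depth. The mean share of cells with a member was 72.2% in superficial, 79.7% in basal, 27.6% in scinla-rich, 37.6% in mesenchymal and 7.62% in retinal cells when thinned to 1000 UMIs, and 84.0% in superficial, 88.0% in basal, 54.7% in scinla-rich, 53.4% in mesenchymal and 13.7% in retinal cells without thinning. Of 100 log2 ratios between classes, 14 moved by more than 1 SD when 5 counts were added instead of 0.5.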

Other observations

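Some annexins were also high outside the epithelium, in clusters of 1 time point each, given as values with no test. Among retinal or neural-like cells, anxa4, anxa5b and anxa3b stood out in Mueller glia-like cells, the supporting glia of the retina. The 42 such cells at 72 hpf had 409.1 CPM of anxa4, 325.4 CPM of anxa5b and 139.5 CPM of anxa3b. At 120 hpf 257 such cells had 167.7 CPM of anxa4, 38.9 CPM of anxa5b and 41.3 CPM of anxa3b. At 144 hpf 114 cells had 151.9 CPM of anxa4, 25.3 CPM of anxa5b and 76.0 CPM of anxa3b. A cluster of 96 hpf named in the same way is not set beside them, since genes of other neurons such as vsx1 and calb2b were among its leading genes. It had lower levels, with 34.1 CPM of anxa4, 14.6 CPM of anxa5b and, for anxa3b, 48.7 CPM, which is above the 120 hpf value. A cartilage-like cluster of 23 cells at 96 hpf had 1029 CPM of anxa1a, near the basal epithelial level, and another of 65 cells at the same time had 136.1 CPM. An unnamed cluster of 125 cells at 144 hpf had 595.8 CPM of anxa1a and 327.7 CPM of anxa4. Its leading genes included matn4 and the cartilage markers col2a1a, col9a2 and cnmd, and no cluster of 144 hpf was in the mesenchymal class. anxa6 was highest in 35 pigment-like cells at 96 hpf, with 77.4 CPM, and in the cluster of 23 cartilage-like cells, with 40.1 CPM, which rest on 7 and 3 UMIs.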
